A study of Homo sapiens with 9 samples.

Results

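Transcript levels of 8 genes of the trypsin branch and its surroundings were followed in BxPC3 cells, a cultured line established from a human pancreatic ductal adenocarcinoma. The genes were the trypsinogens PRSS1, PRSS2 and PRSS3, the serine protease genes PRSS8, PRSS22, PRSS23 and ST14, and the trypsin inhibitor SPINK1. They were taken by symbol from 60564 gene identifiers, and were chosen from earlier results of these same libraries, in which PRSS1 and PRSS2 were among the largest increases after STAT3 siRNA. Their values in STAT3 siRNA against vehicle and in WB436B against STAT3 siRNA are therefore given as a description, without p-values. WB436B against vehicle was tested, although it shares its vehicle libraries with the comparison behind the choice.

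The 9 RNA-seq libraries formed 3 groups of 3: cells under vehicle, cells given a small interfering RNA (siRNA) that targets STAT3, and cells under 0.1 µM of the compound WB436B, for which the labels give a code name and no structure. Every group was the same cell line, and the labels call the 3 libraries of a group biological replicates without naming separate cultures, so a p-value reflects the variation among these libraries, which may be technical. The vehicle's solvent, the treatment times and a non-targeting siRNA control were not given in the sources used here, so transfection and the loss of STAT3 cannot be told apart. Levels are FPKM (fragments normalised to transcript length and to the library's mapped fragments), and differences are log2 fold changes of FPKM + 1, a scale that understates the change of weakly expressed genes.

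Trypsinogens are inactive precursors of trypsin that acinar cells of the pancreas make and secrete. The gut enzyme enteropeptidase (TMPRSS15) cuts off a short activation peptide, and trypsin then activates further trypsinogen and other digestive zymogens. PRSS1 encodes cationic trypsinogen, PRSS2 anionic trypsinogen and PRSS3 mesotrypsinogen, whose trypsin resists protein inhibitors. SPINK1 is the pancreatic inhibitor that blocks trypsin activated too early, and mutations of PRSS1 and SPINK1 are known from hereditary pancreatitis. PRSS8 (prostasin) and ST14 (matriptase) are anchored in the membrane of epithelial cells, where they act in one proteolytic pathway. STAT3 is the transcription factor that many cytokine receptors activate.

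A promoter window is shown for each of the 3 trypsinogen genes. They are shown because PRSS1 and PRSS2 were both much higher after STAT3 siRNA and PRSS3 was not. Levels are per gene, and the annotated PRSS3 gene has 8 transcripts and begins at chr9:33750466, far upstream of its window. Whether the PRSS3 levels came from the start shown was not tested. Each window runs from 250 bases before to 50 after the RefSeq start site (GRCh38.p14, plus strand, 5′ to 3′): chr7:142749222-142749521 for PRSS1, chr7:142770720-142771019 for PRSS2 and chr9:33795311-33795610 for PRSS3. Capitals mark matches to TTCNNNGAA, a core to which STAT proteins are known to bind and which reads the same on both strands, or, in PRSS1, the 9 bases aligned to the PRSS2 match.

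PRSS1: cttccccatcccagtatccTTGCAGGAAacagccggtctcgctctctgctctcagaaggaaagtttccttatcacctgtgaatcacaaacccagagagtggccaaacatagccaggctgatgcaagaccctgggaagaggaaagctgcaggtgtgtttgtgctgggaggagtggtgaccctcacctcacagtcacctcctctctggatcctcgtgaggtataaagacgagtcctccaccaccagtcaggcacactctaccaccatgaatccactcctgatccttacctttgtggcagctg

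PRSS2: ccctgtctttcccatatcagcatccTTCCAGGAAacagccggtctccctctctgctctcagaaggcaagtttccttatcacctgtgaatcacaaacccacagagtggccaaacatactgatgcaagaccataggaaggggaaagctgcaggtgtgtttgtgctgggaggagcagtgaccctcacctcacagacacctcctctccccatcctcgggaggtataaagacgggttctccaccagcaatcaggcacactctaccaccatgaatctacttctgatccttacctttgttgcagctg

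PRSS3: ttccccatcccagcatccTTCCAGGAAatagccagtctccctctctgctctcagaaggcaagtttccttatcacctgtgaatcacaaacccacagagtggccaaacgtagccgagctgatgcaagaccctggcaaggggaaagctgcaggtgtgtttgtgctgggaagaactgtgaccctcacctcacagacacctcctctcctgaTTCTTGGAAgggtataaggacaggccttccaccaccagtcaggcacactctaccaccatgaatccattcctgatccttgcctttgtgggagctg

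The PRSS1 and PRSS2 windows were identical at 91.5% of 294 aligned bases, and the PRSS3 window was identical to PRSS1 at 89.6% and to PRSS2 at 89.8%. The PRSS2 window held 1 match, TTCCAGGAA, whose first base lay at -225 from the start site. PRSS1 has TTGCAGGAA in the aligned place, at -231. This is the substitution C3G, with positions counted from 1 at the motif's 5′ end and PRSS2 as the reference. PRSS3 held 2 matches, at -232 and -44. The motif occurred in 7.66% of the 35116 promoter windows of this length in the table. TATAAA, the core of the TATA box, searched on both strands and not overlapping the capitals, was found once in PRSS1, once in PRSS2 and not in PRSS3, and in 11.5% of all windows. In the corresponding place the PRSS3 window reads TATAAG, which differs in the last base only. A match describes letters only, and occupancy was not measured. Windows for 5 of the 8 genes were in the table.

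PRSS1 and PRSS2 were weakly expressed under vehicle and about 12 times higher after STAT3 siRNA. PRSS1 read 0.734, 1.18 and 1.23 FPKM under vehicle, 12.2, 13.9 and 12.1 FPKM after STAT3 siRNA, and 0.676, 0.422 and 0.457 FPKM under WB436B. All 3 STAT3 siRNA libraries lay far above the others, and all 3 WB436B libraries lay below all 3 vehicle libraries. Mean levels were 1.05 ± 0.273, 12.7 ± 1.01 and 0.518 ± 0.138 FPKM (SD, n = 3), a 12.1-fold ratio of siRNA to vehicle. The log2 fold change after siRNA was 2.75 (SE 0.113), the 6th largest increase among the 12747 identifiers tested. Under WB436B PRSS1 fell by 0.43 on the log2 scale (SE 0.113, limma adjusted p = 0.0095), to 49.4% of the vehicle mean in FPKM. With a pseudocount of 0.1 the change was -0.89 (limma adjusted p = 0.0055). The call was lost under quantile normalization, where the log2 fold change was -0.00096 (limma adjusted p = 0.995).

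PRSS2, the anionic form, read 0.564, 0.481 and 0.940 FPKM under vehicle, 8.74, 8.20 and 7.97 FPKM after STAT3 siRNA, and 1.30, 1.20 and 0.750 FPKM under WB436B. The STAT3 siRNA libraries were again far above all others, while the vehicle and WB436B libraries overlapped. Means were 0.662 ± 0.245, 8.30 ± 0.393 and 1.08 ± 0.294 FPKM (SD, n = 3), a 12.5-fold ratio of siRNA to vehicle. The log2 fold change was 2.49 (SE 0.129), the 10th largest increase. Under WB436B it was 0.33 (SE 0.129, limma adjusted p = 0.051), just short of the threshold of 0.05. PRSS1 and PRSS2 each reached the minimum level for testing only with the help of the STAT3 siRNA libraries, so they had to differ to be tested at all.

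**Figure D1:**
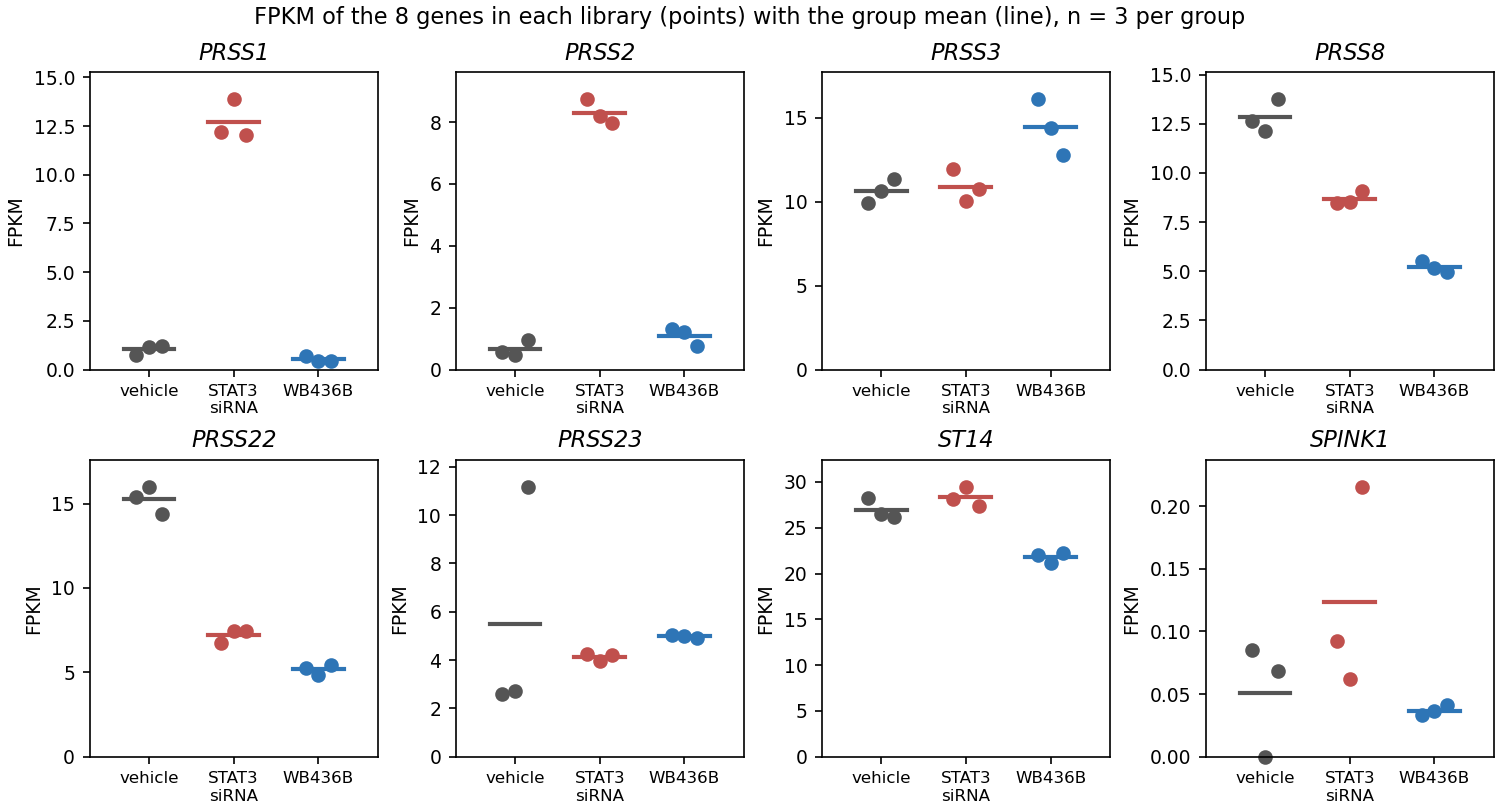
FPKM (vertical axes, linear, each from 0) of the 8 genes in each of the 9 libraries by group; points are libraries in the order 1 to 3 and lines are group means. PRSS1 and PRSS2 stand high in the 3 STAT3 siRNA libraries alone, PRSS8 and PRSS22 step down from vehicle to STAT3 siRNA to WB436B, and vehicle library 3 stands apart in PRSS23.

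PRSS1 and PRSS2 are similar in sequence. Their main GENCODE 29 transcripts, of 800 and 795 bases, were identical at 92.6% of 794 aligned bases, with a longest shared run of 68 bases. Of the 50-base stretches of the PRSS1 transcript, 3.20% occurred unchanged in PRSS2, and of the 75-base stretches none did. A PRSS3 transcript that encodes mesotrypsinogen was about as close, with 91.4% identity to PRSS1 and 93.5% to PRSS2. PRSS8 and PRSS22 were distant, at 60.5% and 58.5% identity to PRSS1. How fragments matching several of these genes were divided was not given in the sources used here, so each single value carries that uncertainty. The sum of PRSS1 and PRSS2 is less sensitive to the division between that pair, though still affected by it, since FPKM divides each gene by its own length.

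The summed trypsinogen level was 1.30, 1.66 and 2.17 FPKM under vehicle, 20.9, 22.1 and 20.03 FPKM after STAT3 siRNA, and 1.98, 1.62 and 1.21 FPKM under WB436B. The vehicle and WB436B libraries overlapped, and every STAT3 siRNA library was far above both. The mean was 1.71 ± 0.437 FPKM under vehicle and 21.0 ± 1.02 FPKM after siRNA (SD, n = 3), 12.3-fold higher, with a log2 fold change of 3.03 (SE 0.136, 95% interval 2.72 to 3.35). Under WB436B the mean was 1.60 ± 0.387 FPKM, 93.7% of vehicle. The log2 fold change there was -0.057 (SE 0.136, 95% interval -0.37 to 0.26, limma adjusted p = 0.73), and an exact two-sided permutation test of the summed FPKM gave p = 0.7, where 3 against 3 libraries cannot go below 0.1. Across the alternatives that log2 fold change ran from -0.17 to 0.27 and was never called. Between the treatments the log2 difference of WB436B against STAT3 siRNA was -3.09 (SE 0.136).

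**Figure D2:**
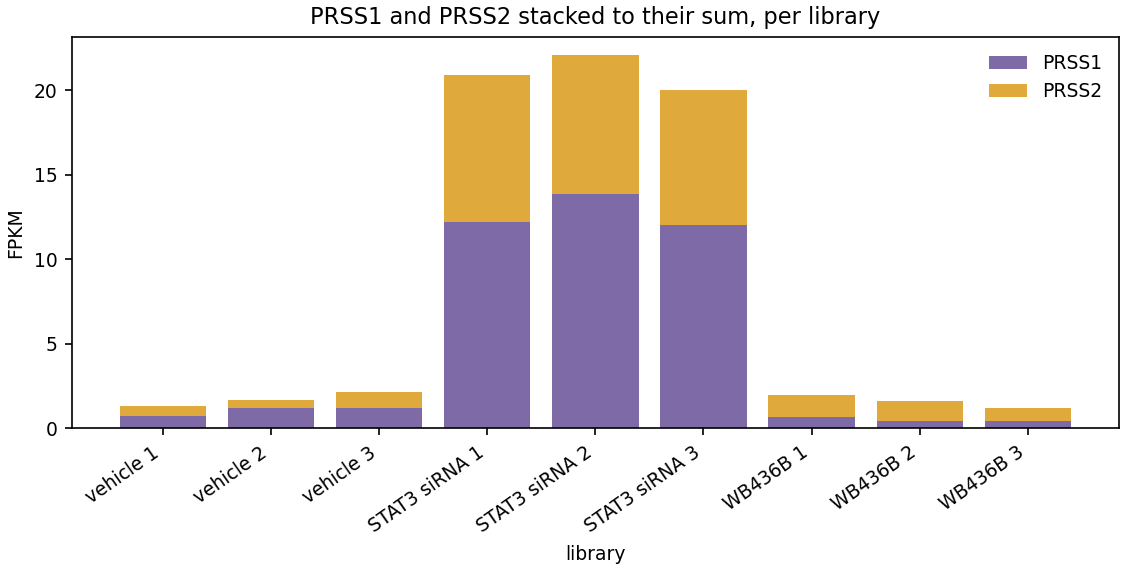
FPKM of PRSS1 (violet) and PRSS2 (yellow) stacked to their sum in each library. The 3 STAT3 siRNA bars stand between 20.03 and 22.1 FPKM and the other 6 between 1.21 and 2.17 FPKM; in the WB436B bars PRSS1 is the smaller part.

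The make-up of the sum differed under WB436B even though the sum did not pass the test. PRSS1 made up 56.6%, 71.1% and 56.6% of it in the vehicle libraries and 58.3%, 62.9% and 60.2% in the STAT3 siRNA libraries, but 34.2%, 26.0% and 37.8% in the WB436B libraries. The WB436B shares did not overlap with the vehicle shares. The mean share was 61.4% under vehicle and 32.7% under WB436B, and the exact two-sided permutation test gave p = 0.1, the smallest that 3 against 3 libraries allow. As a ratio of FPKM, PRSS1 to PRSS2 was 1.30, 2.46 and 1.31 under vehicle, 1.40, 1.69 and 1.51 after STAT3 siRNA, and 0.519, 0.352 and 0.609 under WB436B. The ratio rests on low values in vehicle and WB436B and on the unknown division of shared fragments. That division may also involve PRSS3, about as close in sequence and far more abundant there (means of 10.6 FPKM under vehicle and 14.4 FPKM under WB436B). Its part was not tested.

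PRSS3 was the dominant trypsinogen under vehicle and WB436B, and it did not share the siRNA pattern. Its levels were 9.94, 10.6 and 11.4 FPKM under vehicle, 11.98, 10.02 and 10.7 FPKM after STAT3 siRNA, and 16.1, 14.4 and 12.8 FPKM under WB436B. Vehicle and STAT3 siRNA overlapped, and the 3 WB436B libraries were above all others. The means were 10.6 ± 0.711, 10.9 ± 0.990 and 14.4 ± 1.67 FPKM (SD, n = 3). The log2 fold change after siRNA was 0.031 (SE 0.0929, 95% interval -0.18 to 0.24). PRSS1 and PRSS2 were known to be among the largest increases there when the genes were chosen, so the contrast with them is only described. Under WB436B PRSS3 rose by 0.40 (SE 0.0929, limma adjusted p = 0.0048).

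SPINK1, which inhibits trypsin inside the pancreas, was close to absent. It read 0.0855, 0 and 0.0681 FPKM under vehicle, 0.0924, 0.0617 and 0.216 FPKM after STAT3 siRNA, and 0.0330, 0.0365 and 0.0411 FPKM under WB436B. No library reached 1 FPKM, so SPINK1 was the single gene of the 8 that was not tested. The highest value belonged to a STAT3 siRNA library, within a group range that overlapped vehicle.

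PRSS8, the membrane-anchored protease prostasin, was lower after both treatments and lowest under WB436B. It read 12.6, 12.1 and 13.7 FPKM under vehicle, 8.46, 8.52 and 9.07 FPKM after STAT3 siRNA, and 5.53, 5.18 and 4.96 FPKM under WB436B. None of the 3 groups overlapped. Of the bases of its exons 11.9% are shared with AC009088.3 in GENCODE 29. The means were 12.8 ± 0.827, 8.68 ± 0.340 and 5.22 ± 0.284 FPKM (SD, n = 3), which put STAT3 siRNA at 67.7% and WB436B at 40.7% of vehicle. The log2 fold change was -0.51 (SE 0.0598) after siRNA and -1.15 (SE 0.0598, limma adjusted p = 8.2e-07) under WB436B.

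ST14, matriptase, was the most abundant of the 8 genes in every group and moved little. It read 28.3, 26.5 and 26.2 FPKM under vehicle, 28.2, 29.5 and 27.4 FPKM after STAT3 siRNA, and 22.03, 21.1 and 22.3 FPKM under WB436B. Vehicle and STAT3 siRNA overlapped, and WB436B lay below both. After siRNA the log2 fold change was 0.070 (SE 0.0472, 95% interval -0.04 to 0.18). Under WB436B ST14 fell by 0.29 (SE 0.0472, limma adjusted p = 0.00062), to 80.9% of the vehicle mean in FPKM.

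Partners of this membrane pathway, from a list of receptors and substrates and a list of inhibitors, were read in the same fit. SPINT1 encodes a membrane-bound Kunitz inhibitor of matriptase and prostasin. It averaged 60.6 ± 1.48 FPKM under vehicle, 54.4 ± 1.72 after STAT3 siRNA and 31.3 ± 0.814 under WB436B (SD, n = 3), and fell under WB436B by 0.93 on the log2 scale (limma adjusted p = 3.8e-07). After siRNA the change was -0.15 (limma adjusted p = 0.014), a call lost with equal library totals (adjusted p = 0.152), without vehicle library 2 (0.0504) and without STAT3 siRNA library 3 (0.0505). SPINT2, of the same list of inhibitors, did not share the fall under WB436B. It was at 0.04 there (limma adjusted p = 0.35) and at -0.25 after siRNA (limma adjusted p = 0.00058). SCNN1A, the alpha subunit of the epithelial sodium channel that prostasin is known to activate, read 31.9, 34.1 and 32.2 FPKM under vehicle, 15.9, 17.7 and 14.9 FPKM after siRNA, and 9.09, 8.96 and 9.77 FPKM under WB436B. It fell by 0.98 and 1.72 on the log2 scale (limma adjusted p = 8.4e-06 and 2.0e-07), with no overlap between groups, in the same order of groups as PRSS8.

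PRSS22, an epithelial protease of the tryptase family also called tryptase epsilon, was lower after both treatments as well. It read 15.4, 16.0 and 14.4 FPKM under vehicle, 6.75, 7.47 and 7.43 FPKM after STAT3 siRNA, and 5.27, 4.87 and 5.44 FPKM under WB436B. The groups did not overlap, and means of 15.3 ± 0.824, 7.22 ± 0.405 and 5.19 ± 0.294 FPKM (SD, n = 3) put the treatments at 47.3% and 34.0% of vehicle. The log2 fold change was -0.98 (SE 0.0615) after siRNA and -1.39 (SE 0.0615, limma adjusted p = 3.9e-07) under WB436B. PLAU (urokinase), whose precursor PRSS22 can activate, fell by 0.53 after siRNA (limma adjusted p = 5.2e-05) and rose by 0.24 under WB436B (limma adjusted p = 0.0029), a rise that was not called under quantile normalization (0.12, adjusted p = 0.0938).

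PRSS23, a secreted serine protease, gave a result that rests on 1 library. Its exons share 11.9% of their bases with FZD4 in GENCODE 29. It read 2.60, 2.71 and 11.2 FPKM under vehicle, 4.27, 3.97 and 4.20 FPKM after STAT3 siRNA, and 5.06, 4.99 and 4.90 FPKM under WB436B. Vehicle library 3 was far above the other 8, and the other vehicle libraries were below all treated ones. With all 9 libraries the log2 fold changes were -0.086 (SE 0.404) after siRNA and 0.13 (SE 0.404, limma adjusted p = 0.79) under WB436B. Without vehicle library 3 they were 0.49 and 0.71, the latter with a limma adjusted p of 2.2e-05. That library read at least 3 times as high as both other vehicle libraries in 36 of 12747 tested genes (0.282%), and the other 8 libraries did so against their own groups in 22 to 41 genes.

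**Figure D3:**
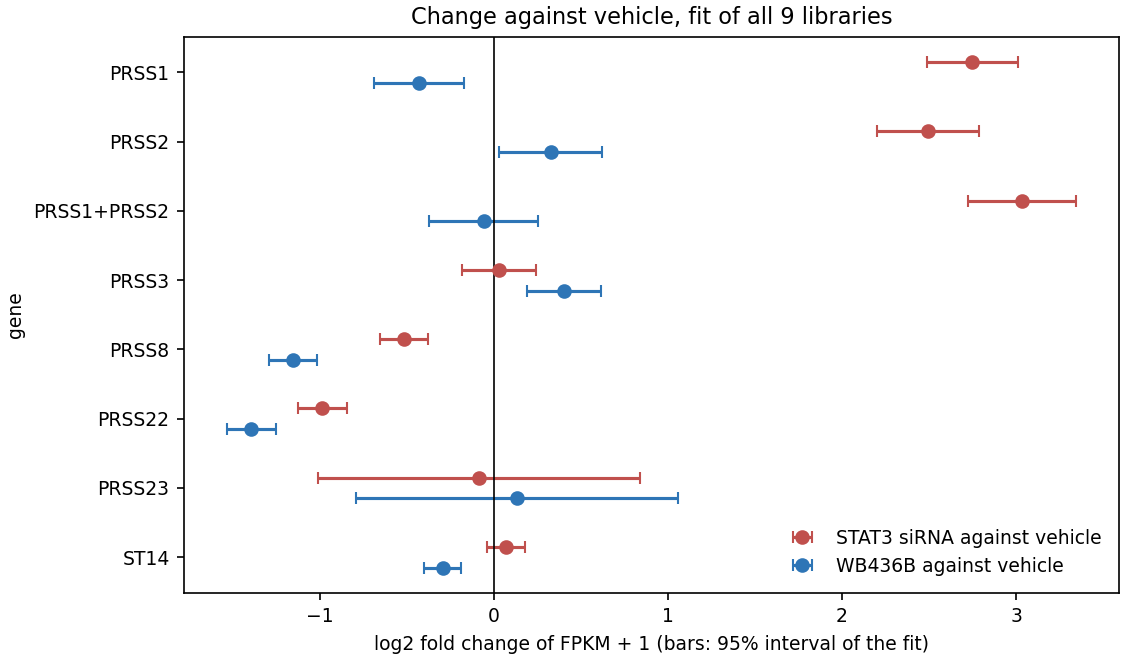
Log2 fold change of FPKM + 1 against vehicle (horizontal axis) for the 7 tested genes and for PRSS1 + PRSS2, from the fit of all 9 libraries; bars are 95% intervals. PRSS1 and PRSS2 stand at 2.75 and 2.49 after STAT3 siRNA and near -0.43 and 0.33 under WB436B, and the wide bars of PRSS23 come with its vehicle SD of 4.92 FPKM.

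Because FPKM is per length, the genes can be ranked within a group. Under vehicle the order of means was ST14 (27.0 FPKM), PRSS22 (15.3), PRSS8 (12.8), PRSS3 (10.6), PRSS23 (5.50), PRSS1 (1.05), PRSS2 (0.662) and SPINK1 (0.0512). The ranges of PRSS3 and PRSS23 overlapped, through vehicle library 3, as did those of PRSS1 and PRSS2. After STAT3 siRNA PRSS1 moved up to second place behind ST14 (28.4 FPKM), just above PRSS3, and PRSS2 lay beside PRSS8 with overlapping ranges. Under WB436B PRSS3 was second behind ST14 (21.8 FPKM). PRSS8, PRSS22 and PRSS23, at 5.22, 5.19 and 4.98 FPKM, were neighbours whose ranges overlapped.

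Counted over the 7 tested genes, STAT3 siRNA against vehicle had 2 higher, 2 lower and 3 that did not pass. Across all tested identifiers 52.1% passed in that comparison, 29.8% higher and 22.3% lower, with a median log2 fold change of 0.062. These genes were chosen on that comparison, and nothing is read from their count. In WB436B against vehicle PRSS3 was higher, PRSS1, PRSS8, PRSS22 and ST14 were lower, and PRSS2 and PRSS23 did not pass. The background there was 65.9%, with 24.9% higher and 41.1% lower, so 5 of 7 is near what any tested gene showed. The median of all tested genes was -0.13, and scaling by median of ratios moved it to -0.0004. With that scaling PRSS1, PRSS8, PRSS22 and ST14 were still lower and PRSS3 still higher, while the log2 fold change of ST14 shrank to -0.14 (limma adjusted p = 0.0381). WB436B against STAT3 siRNA had 1 higher, 5 lower and 1 that did not pass, beside a background of 64.1% in either direction. The log2 differences there were -3.18 for PRSS1, -2.17 for PRSS2, 0.37 for PRSS3, -0.64 for PRSS8, -0.41 for PRSS22, 0.22 for PRSS23 and -0.36 for ST14.

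PRSS1 and PRSS2 lie inside the T cell receptor beta locus on chromosome 7, so their neighbours were read too. In GENCODE 29 the PRSS2 gene model begins 10.93 kb from the PRSS1 start, upstream of the RefSeq start used for the promoter above. The table held 71 rows within 300 kb, of which 65 were too low to test and 4 were tested besides the trypsinogens. TRBC2, a constant segment of the receptor 51.6 kb away, read 5.38, 5.53 and 4.27 FPKM under vehicle, 17.2, 18.9 and 17.2 FPKM after STAT3 siRNA, and 18.3, 16.5 and 17.1 FPKM under WB436B. It rose in both comparisons, by 1.63 and 1.60 on the log2 scale (limma adjusted p = 2.4e-06 and 1.0e-06), unlike PRSS1 and PRSS2, whose WB436B libraries were low. EPHB6, a receptor of the ephrin family 105.6 kb away, read 4.57, 5.07 and 4.38 FPKM under vehicle, 8.27, 10.9 and 8.85 FPKM after siRNA, and 5.84, 5.35 and 6.13 FPKM under WB436B. It rose by 0.86 after siRNA (limma adjusted p = 0.00015) and by 0.26 under WB436B (limma adjusted p = 0.046). The latter call was lost without vehicle library 1 or 3, STAT3 siRNA library 3, or WB436B library 1 or 3, with no filter and with a replicate block, with limma adjusted p from 0.0582 to 0.127. TRBJ2-2P and TRBJ2-3 are joining segments about 47 kb away. TRBJ2-3 did not pass in either comparison with vehicle (limma adjusted p = 0.063 after siRNA and 0.87 under WB436B). TRBJ2-2P reached the minimum level only with the help of its WB436B libraries, so its log2 fold changes of 0.34 after siRNA and 0.43 under WB436B are descriptions.

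**Figure D4:**
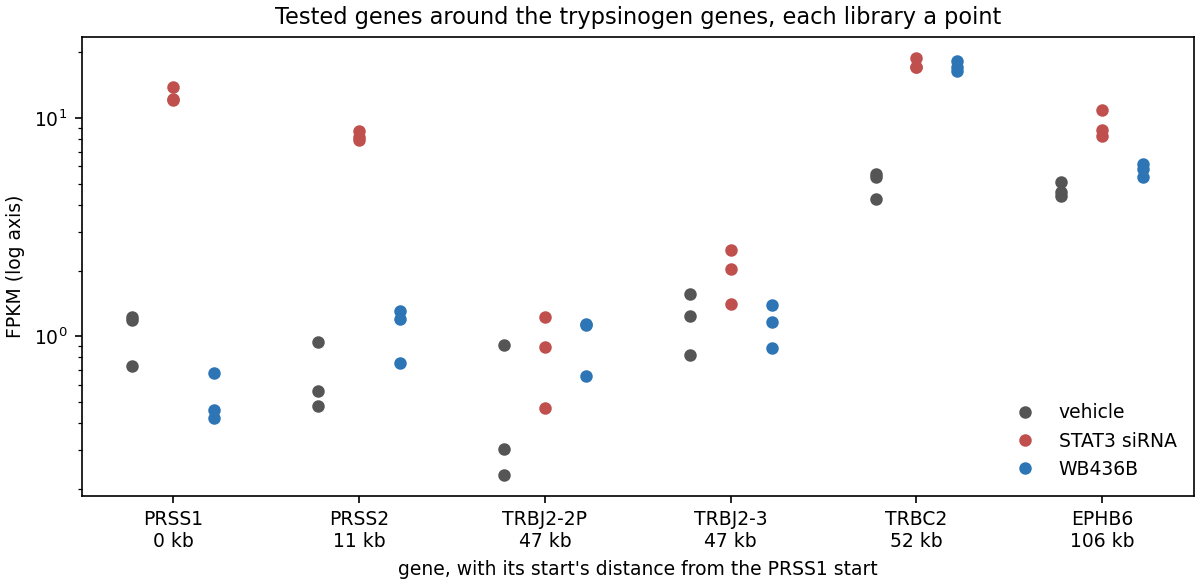
FPKM (log axis) of the 6 tested genes within 300 kb of the PRSS1 start, with the distance of each gene's start in kb; each point is a library. PRSS1 and PRSS2 are high after STAT3 siRNA alone, TRBC2 is high after both treatments, and EPHB6 is highest after STAT3 siRNA.

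Of the list of 36 acinar genes, which mark the cells that normally make trypsinogen, 16 were at 0 in all 9 libraries and 33 never reached 1 FPKM. The defining genes PTF1A (the acinar transcription factor), CPB1, PNLIP and CELA3A (digestive enzymes) were at 0 in every library. Only CEL, a lipase, and KLK1, tissue kallikrein, could be tested. CEL fell by 0.72 after siRNA and 1.49 under WB436B (limma adjusted p = 0.00041 and 3.0e-06). KLK1 read 1.83, 2.64 and 2.35 FPKM under vehicle and at most 0.480 FPKM in the 6 treated libraries. It reached the minimum level only through its vehicle libraries, so it had to be lower elsewhere and is given as a description. The summed level of the 36 genes was 10.4 to 12.005 FPKM under vehicle, 5.79 to 6.85 FPKM after STAT3 siRNA and 3.75 to 4.41 FPKM under WB436B. That sum includes KLK1, and 33 of its genes never reached 1 FPKM, so it does not describe acinar genes as a set. Ductal markers were abundant, with KRT19, a duct keratin, at 710 ± 24.0 FPKM under vehicle (SD, n = 3) and a summed level over 12 markers of 1235 to 1289, 1189 to 1267 and 1115 to 1237 FPKM in the groups. The sums hide changes in both directions. Of the 10 tested markers 5 rose and 4 fell after siRNA, and 3 rose and 4 fell under WB436B, beside 29.8% and 22.3%, and 24.9% and 41.1%, of all tested genes. KRT19 fell by 0.50 and 1.09 and MUC1, a mucin, by 1.80 and 1.72, while the keratin KRT18 rose by 0.48 and 0.87 (limma adjusted p at most 4.6e-05 in each case). None of the 11 T and B cell markers reached 1 FPKM, which is given beside TRBC2. None of the 6 endothelial or 8 endocrine markers did so either. Of 8 myeloid markers 2 were tested. CD68 fell by 0.62 under WB436B (limma adjusted p = 0.013), which was not called under quantile normalization, and was at -0.45 after siRNA (limma adjusted p = 0.060). CD14 reached 1 FPKM in the vehicle libraries and 1 other, so it too is only described, with log2 fold changes of -0.42 and -0.99. The summed level of the 8 was 5.37 to 7.71 FPKM under vehicle, 3.43 to 5.55 after siRNA and 2.705 to 3.46 under WB436B. Of 9 fibroblast markers 2 were tested. COL1A1 rose by 0.27 after siRNA (limma adjusted p = 0.0053) and fell by 0.65 under WB436B (limma adjusted p = 2.1e-05). COL3A1 was the other, tested through its STAT3 siRNA libraries alone. It averaged 0.171 ± 0.0340 FPKM under vehicle, 1.22 ± 0.102 after STAT3 siRNA and 0.0663 ± 0.0265 under WB436B (SD, n = 3). The summed level of the 9 was 2.96 to 3.08, 3.87 to 4.16 and 1.17 to 1.38 FPKM in the groups. COL3A1 and the trypsinogens were thus both highest after STAT3 siRNA, and its part in the result was not tested.

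Of 15 listed kallikreins, 4 were tested, and KLK13, KLK11 and KLK10 fell after both treatments, where 22.3% and 41.1% of all tested genes were lower. The fourth was KLK1, described above. KLK13 read 6.82 ± 0.696 FPKM under vehicle, 0.890 ± 0.0468 after siRNA and 1.64 ± 0.207 under WB436B (SD, n = 3; log2 -2.05 and -1.56, limma adjusted p = 7.0e-07 and 9.5e-07). KLK11 read 21.0 ± 0.873, 6.42 ± 0.226 and 3.78 ± 0.650 FPKM (log2 -1.56 and -2.21, limma adjusted p = 3.5e-06 and 2.6e-07). KLK10 followed with log2 changes of -1.30 and -1.72 (limma adjusted p = 0.00012 and 1.1e-05). Kallikreins are secreted serine proteases of the trypsin fold that epithelia and glands make.

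Of 17 transmembrane serine proteases 3 were tested. TMPRSS4, known from pancreatic cancer, read 18.9, 18.0 and 18.0 FPKM under vehicle, 5.16, 5.85 and 5.50 FPKM after siRNA, and 6.27, 6.17 and 6.55 FPKM under WB436B (log2 -1.57 and -1.40, limma adjusted p = 3.2e-07 and 1.8e-07). TMPRSS11D and TMPRSS11E reached the minimum level only with the libraries of their highest group, vehicle and WB436B, so their values are descriptions. TMPRSS11D averaged 3.45 ± 0.372 FPKM under vehicle, 1.12 ± 0.205 after siRNA and 0.751 ± 0.117 under WB436B (SD, n = 3), and TMPRSS11E 0.487 ± 0.215, 1.02 ± 0.0410 and 1.40 ± 0.138 FPKM. Of 29 other PRSS-named genes 27 never reached 1 FPKM. The tested pair were PRSS12, a neuronal protease, which fell by 0.51 and 1.14 (limma adjusted p = 0.0040 and 2.2e-05), and PRSS21, a membrane-anchored protease of the testis, which fell by 0.52 after siRNA (limma adjusted p = 0.0051) and was at -0.07 under WB436B (limma adjusted p = 0.60).

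Among 32 inhibitors of serine proteases and relatives, 11 were tested. After siRNA 9 fell and 2 rose, with a median of -0.48, and under WB436B 8 fell, 1 rose and 2 did not pass, with a median of -0.93. Over all tested genes 22.3% were lower and 29.8% higher after siRNA, and 41.1% and 24.9% under WB436B. PI3 (elafin), an elastase inhibitor of epithelia, averaged 90.9 ± 1.54 FPKM under vehicle, 32.4 ± 2.45 after siRNA and 11.2 ± 0.646 under WB436B (SD, n = 3; log2 -1.46 and -2.92, limma adjusted p = 7.7e-07 and 2.1e-08). SLPI, the secretory leukocyte protease inhibitor and the most abundant of the list, averaged 209 ± 6.80, 95.7 ± 3.18 and 84.4 ± 6.65 FPKM, and fell by 1.12 after siRNA (limma adjusted p = 2.4e-06). SPINK5, an inhibitor of kallikreins, was at -0.25 after siRNA and -1.68 under WB436B (limma adjusted p = 0.0013 and 4.0e-08). WFDC2 was at -1.27 and -2.15 (limma adjusted p = 1.4e-05 and 4.0e-07). TFPI was at -1.22 after siRNA and -1.07 under WB436B (limma adjusted p = 3.8e-06 and 3.1e-06). SERPINE2 was at -1.20 and -0.78 (limma adjusted p = 3.7e-06 and 1.7e-05). The pair counted as higher after siRNA was SPINK4 (1.41) and SERPINI1 (0.84), which were tested only with the help of their siRNA libraries, and the one that rose under WB436B was TFPI2 (1.16). These 3 were named after their values were seen.

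Genes that activate or process trypsinogen gave 3 lower and 1 not passing of 4 tested in each comparison with vehicle, with medians of -0.55 and -0.67, where 22.3% and 41.1% of all tested genes were lower. They were not the same genes. MMP9, a matrix protease, was at -1.10 after siRNA and 0.03 under WB436B. It is 1 of the 3 counted as lower after siRNA, but was tested only with the help of its WB436B libraries, so its values are descriptions. CTSD, cathepsin D, was at -0.23 and -0.98 (limma adjusted p = 0.26 and 0.00073). CTSB, cathepsin B, which can activate trypsinogen inside cells, averaged 31.9 ± 6.44 FPKM under vehicle, 20.00 ± 2.08 after siRNA and 11.4 ± 2.55 under WB436B (SD, n = 3). It fell by 0.63 and 1.40 (limma adjusted p = 0.019 and 0.00018), and the siRNA call was lost without vehicle library 1 or 2 or STAT3 siRNA library 1, with adjusted p of 0.0646, 0.0641 and 0.064. CTSL, cathepsin L, which can inactivate trypsinogen, fell by 0.47 and 0.35 (limma adjusted p = 6.0e-05 and 0.00016). TMPRSS15, the physiological activator, and CTRC, chymotrypsin C, which degrades trypsinogen, were too low to test, with means between 0.11 and 0.25 FPKM in every group.

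Receptors and substrates of these proteases were mixed: of 13 tested, 3 rose, 5 fell and 5 did not pass after siRNA, and 5 rose, 4 fell and 4 did not pass under WB436B. Their median was -0.11 and 0.19, and 52.1% and 65.9% of all tested genes passed in either direction. PLAUR, the urokinase receptor, rose by 0.51 and 1.37 (limma adjusted p = 0.0029 and 5.3e-06). MET, the receptor whose ligand matriptase helps to mature, rose by 0.39 under WB436B (limma adjusted p = 6.9e-05). After siRNA MET was at -0.17 (limma adjusted p = 0.0094), a call lost with equal library totals (-0.12, adjusted p = 0.13). F2RL1, the receptor PAR2 that trypsin cleaves, read 7.42, 7.71 and 6.94 FPKM under vehicle, 11.1, 10.6 and 4.17 FPKM after siRNA, and 13.04, 11.7 and 12.4 FPKM under WB436B. STAT3 siRNA library 3 was below all vehicle libraries and the other siRNA libraries above them, and all WB436B libraries were above all vehicle libraries. The log2 fold changes of 0.10 and 0.68 did not pass (limma adjusted p = 0.78 and 0.061). Without STAT3 siRNA library 3 they were 0.50 and 0.68, both called (limma adjusted p = 0.00077 and 4.1e-05). Under WB436B the gene was also called without STAT3 siRNA library 1, with median-of-ratios scaling, with equal totals and in a fit of both groups alone.

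**Figure D5:**
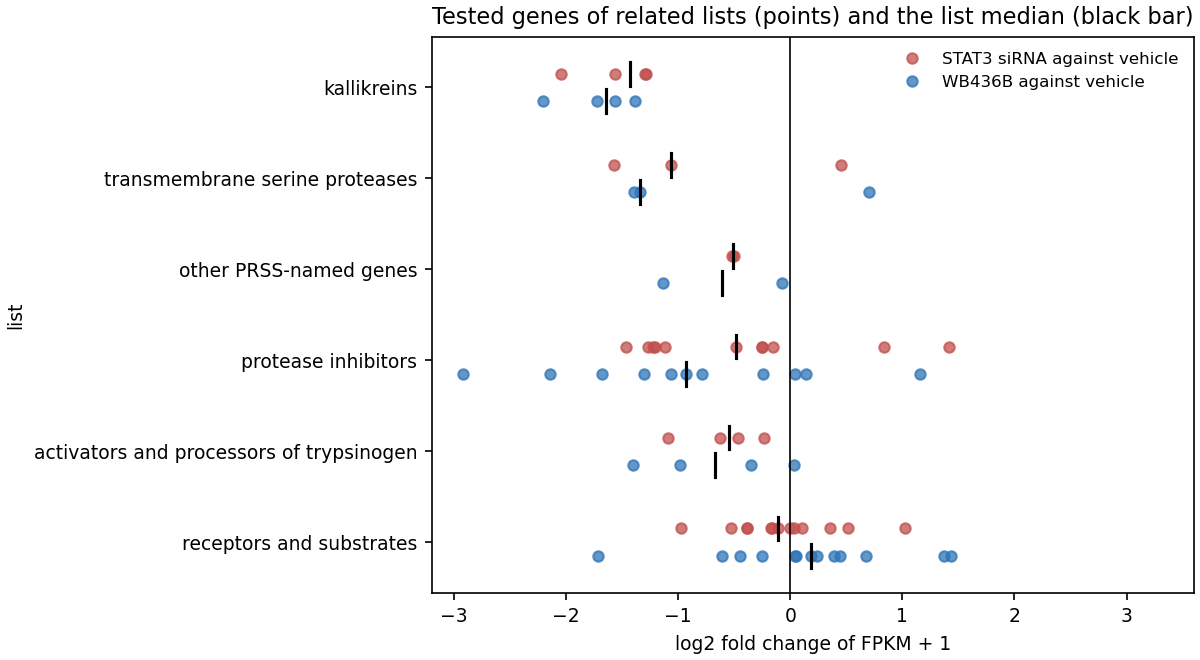
Log2 fold change of FPKM + 1 against vehicle (horizontal axis) for the tested genes of 6 lists (points) with each list's median (black bars). All 4 kallikreins lie below 0 for both treatments, KLK1 having been tested only through its vehicle libraries, and the receptors and substrates lie on both sides.

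STAT3, the target of the siRNA, read 16.4, 15.8 and 15.1 FPKM under vehicle, 2.98, 2.58 and 3.02 FPKM after STAT3 siRNA, and 10.5, 10.9 and 10.8 FPKM under WB436B. SOCS3, a target of STAT3 that feeds back on it, fell by 1.73 after siRNA and by 0.36 under WB436B (limma adjusted p = 1.8e-06 and 0.0060), the latter not called under quantile normalization (adjusted p = 0.0907). Estimated depth was 14900000 to 47200000 fragments, highest in vehicle library 1, so 1 FPKM stood for 14.9 to 47.2 fragments per kilobase and the vehicle and WB436B values of PRSS1 and PRSS2 rest on few fragments. Libraries of a group correlated at 0.980 to 0.988 and libraries of different groups at 0.918 to 0.941 (Pearson, log2 scale, across tested genes).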

How the data were processed

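The authors deposited one table of FPKM values with a row per human Ensembl identifier and a column per library; 3 further columns were empty. Bowtie 0.12.2 and mm8, a mouse build, appear in the submitters' processing notes, so the genome behind the human rows is uncertain. The FPKM program, annotation and strandedness were not given in the sources used here, so antisense and overlapping genes may share fragments.

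Identifiers reaching 1 FPKM in 3 or more of the 9 libraries were tested (12747 of 60564) as log2(FPKM + 1). All 9 libraries entered a limma-trend model (limma 3.58.1, R 4.3.3) with group means and no replicate block (two-sided, Benjamini-Hochberg over all tested identifiers, called below 0.05). The model was also run on simulated data. Far fewer genes were changed there than passed in these libraries, so that run does not cover this setting. For the sum, the rows of PRSS1 and PRSS2 were replaced by their total. Exon and transcript data came from GENCODE 29, matched by identifier, and promoters from RefSeq, matched by symbol. In GENCODE 29 the exons of PRSS8 and PRSS23 shared 11.9% of their bases with another gene, those of PRSS3 4.33% and those of PRSS2 3.18%. Depth was estimated from the FPKM worth of 1 fragment.

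The 8 genes, the 15 lists and the tests were chosen with earlier results of these data known. Named were all 8 genes, STAT3 and SOCS3, up to 4 called genes of each list by smallest adjusted p in each comparison with vehicle, and list genes of other cell types by level or absence. Of these, SPP1 (-2.06) and DSG2 (-0.39) after siRNA and KRT7 (0.80) and CDCP1 (0.44) under WB436B are given only here, as log2 fold changes. Other genes were named for their role (F2RL1, TMPRSS15, CTRC and the chromosome 7 neighbours) or after their values were seen. Alternatives were other pseudocounts, filters, scalings, variance models and samples, a replicate block and leaving out each library.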

Additional observations from a re-analysis of the deposited data

How the results depend on the processing

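The counts of called genes among the 7 tested (4 in STAT3 siRNA against vehicle, 5 in WB436B against vehicle, 6 in WB436B against STAT3 siRNA) stayed within 1.5 times under all alternatives run, which for the comparisons with the siRNA libraries only describes genes chosen there. The PRSS1 and PRSS2 sum in WB436B against vehicle was not called in any alternative, with log2 fold changes on both sides of 0, from -0.17 without vehicle replicate 1 to 0.27 with quantile normalization. Among the single genes, PRSS23 reversed in STAT3 siRNA against vehicle, to 0.49, without vehicle replicate 3, the library that stands apart in this gene, and ranged from -0.39 to 0.49 when each library was left out in turn. PRSS2 under WB436B passed in 8 alternatives, at 0.65 with a pseudocount of 0.1, 0.45 with 0.5, 0.41 with median-of-ratios scaling, 0.70 with quantile normalization, 0.36 with equal totals, 0.33 with no variance trend, and 0.44 and 0.45 without vehicle replicate 3 and WB436B replicate 3; the cause was not tested. The share of higher genes among all calls in WB436B against vehicle was 37.7%, and 49.9% with median-of-ratios scaling, 53.0% with quantile normalization and 50.4% with a filter of 5 FPKM. Whether replicate numbers pair the libraries was not settled. Between vehicle and STAT3 siRNA, deviations of same-numbered libraries correlated at 0.0419, 0.119 and 0.158, and those of different-numbered libraries at -0.124 to 0.0144. In pairs with WB436B the same-numbered ran from -0.0847 to 0.0376 and the different-numbered from -0.0462 to 0.074. With a replicate block the sum stayed at 3.03 after siRNA, the counts of called genes at 4, 5 and 6, and PRSS2 under WB436B had an adjusted p of 0.0866. Low levels, which rest on few fragments, limit PRSS1 and PRSS2 outside the siRNA libraries and SPINK1 in every library.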

Other observations

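The genes whose levels ran most like the PRSS1 and PRSS2 sum over the 9 libraries were taken from 2011 tested genes whose group means span at least 1 on the log2 scale. DMBT1, a secreted scavenger receptor of mucosal epithelia, averaged 0.139 ± 0.0324 FPKM under vehicle, 4.45 ± 0.321 after STAT3 siRNA and 0.119 ± 0.0256 under WB436B (SD, n = 3), with Pearson's r of 0.991. ZHX2, a transcriptional repressor, averaged 3.93 ± 0.194, 9.23 ± 0.308 and 4.02 ± 0.283 FPKM (r = 0.991). GAS5, a long non-coding RNA that hosts small nucleolar RNAs, averaged 12.035 ± 0.7005, 41.2 ± 0.676 and 13.9 ± 0.747 FPKM (r = 0.990). AL356804.1 (r = 0.993), CPLX1 (r = 0.988) and SLC16A14 (r = 0.987) completed the 6. Each of the 6 genes had its 3 highest values in the STAT3 siRNA libraries, which follows from how they were picked. AL356804.1, DMBT1, CPLX1 and SLC16A14 stayed below 1 FPKM in every vehicle and WB436B library. These genes were thus tested only through their STAT3 siRNA libraries and had to differ. The points share their libraries and fall into 3 groups, so the correlation describes a shared step between groups.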
